A study of Mus musculus with 20 samples.

Results

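Uroplakins are the membrane proteins that pave the surface of the urothelium, the epithelium lining the bladder and ureters. The tetraspanins uroplakin Ia and uroplakin Ib (genes Upk1a and Upk1b) each pair with a single-pass partner. Uroplakin Ia pairs with uroplakin II (Upk2) and uroplakin Ib with uroplakin IIIa (Upk3a), and these heterodimers pack into the plaques of the asymmetric unit membrane of superficial umbrella cells. Uroplakin IIIb (Upk3b) is an alternative partner of uroplakin Ib, and in the mouse Upk3b and Upk1b are also known from mesothelium, the lining of body cavities. The bladder and the prostate arise from the urogenital sinus, whereas the seminal vesicle arises from the Wolffian duct.

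The 5 uroplakin genes were followed through a table of 23284 genes in 20 RNA-seq libraries from tissue recombinants, which are grafts of epithelium combined with embryonic mesenchyme. They were chosen by name, and because members of the family differed in opposite directions between grafts with a prostate-like and a seminal-vesicle-like profile in these same libraries. Differences between those 2 graft types are therefore descriptions, with no test. Upk1a, Upk1b, Upk2 and Upk3b were 4 of the 13456 genes that reached a log2 value of 5 in at least 4 libraries, and Upk3a was not.

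Each of 5 groups had 4 libraries. The epithelium came from mice aged 2 months and was combined with urogenital sinus mesenchyme of Sprague Dawley rats, the embryonic tissue that induces prostate. In 3 groups it was seminal vesicle epithelium carrying the construct labelled mNKX3.1, the hairpin labelled UTY_sh, or both (mNKX3.1+UTY_sh). The other two were unmodified prostate epithelium (PE) and unmodified seminal vesicle epithelium (SVE). All were collected 3 months after implantation. Host mice drank doxycycline for 3 months, which switches on the pTRIPZ-derived inducible vector. The labels give the mouse strain both as a hybrid of 129/SvImJ and C57Bl/6J and as C57Bl/6J. They do not say what the m in mNKX3.1 stands for or whether each library is a separate animal. The p-values thus cover only the variation among these libraries, part of which may be technical.

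The mNKX3.1 and PE libraries are called prostate type below (8 libraries) and the mNKX3.1+UTY_sh, UTY_sh and SVE libraries seminal vesicle type (12 libraries). Pbsn, a secreted prostate protein, lay between 17.37 and 18.00 on the log2 scale in the prostate type and between 5.29 and 15.71 in the seminal vesicle type. Svs2, a seminal vesicle secretory protein, averaged 16.65 ± 0.40 in mNKX3.1, 16.44 ± 1.72 in PE and 22.07 ± 0.40 in SVE grafts (SD, n = 4 each). In PE against SVE grafts, where limma called 62.1% of genes, the prostate secretory genes Pbsn, Msmb and Tgm4 were 7.87, 9.89 and 7.57 higher, and Svs2, Svs5 and Sva of the seminal vesicle differed by -5.63, -7.35 and -10.88, all 6 called. Uty, the Y-linked gene that the hairpin is named for, averaged 9.15 ± 0.09 in mNKX3.1+UTY_sh, 9.22 ± 0.22 in UTY_sh and 9.29 ± 0.21 in SVE grafts. The test across all genes with limma did not call either difference from SVE grafts (-0.14, adjusted p = 0.9998, and -0.07, adjusted p = 0.9995). The hairpin groups are therefore named only as the libraries labelled so. Uty did differ between the graft types, at 10.23 ± 0.11 in mNKX3.1 and 10.24 ± 0.14 in PE grafts. By limma it was 0.95 higher in PE than in SVE grafts (adjusted p = 7.267e-07). In mNKX3.1+UTY_sh against mNKX3.1 grafts, where 63.8% of genes were called, it differed by -1.08 (adjusted p = 1.367e-07). Depth was about 14900000 to 21900000 reads per library in the prostate type and 20300000 to 29800000 in the seminal vesicle type. The 50 most abundant genes held 35.6% to 38.2% of the signal in the prostate type and 58.0% to 67.8% in the seminal vesicle type.

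Libraries of different groups resembled each other. Over 5205 genes with a mean log2 value of at least 9, with the uroplakins left out, each mNKX3.1 library was matched by a weighted sum of 2 PE libraries to a root mean square difference of 0.066 to 0.085. Sums of 2 mNKX3.1 libraries matched the PE libraries less closely, to 0.092 to 0.18. UTY_sh libraries were matched by sums of 2 SVE libraries to 0.078 to 0.155, and SVE libraries by sums of 2 UTY_sh libraries to 0.166 to 0.203. In the 4 mNKX3.1 libraries the observed value minus that from the PE sums lay between -0.01 and 0.17 for Upk1a, -0.08 and 0.04 for Upk1b, -0.34 and 0.27 for Upk2 and -0.27 and 0.28 for Upk3b. Some other sums came as close for single members. UTY_sh libraries less the mNKX3.1+UTY_sh sums lay between -0.01 and 0.17 for Upk1a. For Upk2, UTY_sh libraries less the SVE sums lay between -0.13 and 0.2. Further sums missed by more. UTY_sh libraries less the SVE sums lay between -1.24 and 0.15 for Upk1a and between -1.86 and 0.25 for Upk3b. PE libraries less the mNKX3.1 sums reached -2.55 for Upk3b, and SVE libraries less the UTY_sh sums spanned -1.91 to 1.39 for Upk1a. Whether libraries of different groups share RNA was not tested, so comparisons between mNKX3.1 and PE, and between the seminal vesicle type groups, rest on libraries whose independence is not shown.

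The upstream sequences below belong to the members with the largest difference in each direction, Upk1a and Upk3b. They are the 250 bases before the gene's start in RefSeq on GRCm38.p6, 5′ to 3′, at chr7:30612735-30612984 on the minus strand for Upk1a and chr5:136038246-136038495 on the plus strand for Upk3b. The table held 3 of the 5 members, the third being Upk3a. Capitals mark matches on either strand to the androgen receptor monomer site (AGAACA), a forkhead site (TGTTTAC), the TATA box (TATAAA) or a GATA site (GATAAG), and no match overlapped another.
Upk1a: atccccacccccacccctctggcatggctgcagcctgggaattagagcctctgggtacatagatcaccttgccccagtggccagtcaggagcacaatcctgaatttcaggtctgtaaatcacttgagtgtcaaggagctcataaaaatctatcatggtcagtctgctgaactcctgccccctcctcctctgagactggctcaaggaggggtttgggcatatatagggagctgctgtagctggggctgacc
Upk3b: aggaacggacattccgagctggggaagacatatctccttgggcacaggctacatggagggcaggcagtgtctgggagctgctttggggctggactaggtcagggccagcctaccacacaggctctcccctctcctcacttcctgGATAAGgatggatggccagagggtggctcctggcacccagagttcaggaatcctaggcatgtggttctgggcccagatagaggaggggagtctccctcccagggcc
The Upk3b window held GATAAG, whose first base lies at -106 from the start, and the Upk1a and Upk3a windows held none of the 4 motifs. Of 32851 mouse windows of this length, 6.5% held the GATA site, 16.1% the androgen receptor monomer site, 3.2% the forkhead site and 12.4% the TATA box. A match is a match of letters and no measure of binding.

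Upk1a, the tetraspanin partner of uroplakin II, had values of 11.61, 11.62, 10.53 and 11.56 in mNKX3.1 and of 10.42, 10.63, 12.24 and 10.34 in PE grafts, all on the deposited log2 scale, as are the values and differences that follow unless a fold is named. It was at 5.22, 4.20, 4.91 and 6.78 in mNKX3.1+UTY_sh, at 4.49, 5.82, 6.41 and 5.16 in UTY_sh and at 7.15, 4.49, 6.38 and 2.88 in SVE grafts. Every prostate type library was above every seminal vesicle type library, with a gap of 3.19 between the lowest of the first and the highest of the second. The mean was 5.68 higher in PE than in SVE grafts, a fold of 51.33, and 6.10 higher in mNKX3.1 than in SVE grafts. Leaving out single libraries moved the difference between PE and SVE grafts to 4.90 without SVE replicate 4 and 6.32 without SVE replicate 1, and that between mNKX3.1 and SVE grafts to 5.32 and 6.75. In mNKX3.1+UTY_sh grafts the mean fell by 6.05 against mNKX3.1 grafts. The libraries of one graft type spread widely, from 2.88 to 7.15 in the seminal vesicle type (SD 1.24, n = 12). Upk2 at a like level in the prostate type had an SD of 0.23 (n = 8). In such bulk samples fewer cells of a type and less RNA per cell cannot be told apart.

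Upk2, which encodes the single-pass partner of uroplakin Ia, had the opposite pattern. It was at 5.53, 5.43, 5.16 and 5.44 in mNKX3.1 and at 5.52, 5.71, 4.98 and 5.50 in PE grafts. Values were 8.29, 8.27, 8.08 and 7.71 in mNKX3.1+UTY_sh, 8.14, 8.08, 7.54 and 7.99 in UTY_sh and 7.48, 7.80, 8.06 and 8.18 in SVE grafts. All 8 prostate type libraries were below all 12 of the seminal vesicle type, with a gap of 1.78. The mean fell by 2.45 in PE against SVE grafts, a fold of 5.48, and by 2.49 in mNKX3.1 against SVE grafts. In mNKX3.1+UTY_sh grafts it was 2.70 higher than in mNKX3.1 grafts.

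Upk1b, the tetraspanin that pairs with the uroplakin III proteins, differed least among the members that passed the filter. Its values were 10.34, 10.28, 10.61 and 10.31 in mNKX3.1 and 10.68, 10.49, 10.12 and 10.51 in PE grafts. They were 9.59, 9.56, 9.54 and 9.72 in mNKX3.1+UTY_sh, 9.60, 9.46, 9.85 and 9.70 in UTY_sh and 9.99, 9.84, 9.60 and 9.60 in SVE grafts. The 2 graft types did not overlap, but the gap between PE replicate 3 and SVE replicate 1 was 0.13. The mean was 0.69 higher in PE than in SVE grafts, a fold of 1.61, and 0.63 higher in mNKX3.1 than in SVE grafts. It fell by 0.78 in mNKX3.1+UTY_sh against mNKX3.1 grafts.

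Upk3b, the alternative partner of uroplakin Ib, was lower in the prostate type, with a wide spread there. It was at 6.18, 3.73, 6.39 and 4.39 in mNKX3.1 and at 7.04, 4.50, 3.30 and 5.94 in PE grafts. In mNKX3.1+UTY_sh grafts it was at 8.51, 8.40, 7.81 and 8.17, in UTY_sh grafts at 8.44, 6.57, 8.50 and 8.74, and in SVE grafts at 8.61, 8.66, 8.35 and 8.36. The graft types overlapped in one pair of libraries, since PE replicate 1 at 7.04 lay above UTY_sh replicate 2 at 6.57. The mean fell by 3.30 in PE against SVE grafts, a fold of 9.85, and by 3.32 in mNKX3.1 against SVE grafts. It was 3.05 higher in mNKX3.1+UTY_sh than in mNKX3.1 grafts. The difference between PE and SVE grafts was -3.92 without PE replicate 1 and -2.67 without PE replicate 3.

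Upk3a, the classical partner of uroplakin Ib and a marker of umbrella cells, stayed near the level of silent genes. It was at 3.16, 3.32, 3.85 and 3.35 in mNKX3.1 and at 3.61, 3.26, 2.94 and 3.21 in PE grafts. In mNKX3.1+UTY_sh grafts it was at 2.73, 2.29, 2.12 and 1.49, in UTY_sh grafts at 3.04, 1.99, 2.89 and 2.44, and in SVE grafts at 2.57, 2.00, 1.76 and 2.54. The graft types overlapped, since UTY_sh replicate 1 lay above PE replicate 3. For scale, 1123 olfactory receptor genes, which these tissues are not known to use, had a median of 2.26 and 95% of their values between 1.35 and 3.23. Upk3a was above the upper limit of that band, taken in the same library, in 5 of 8 prostate type and 0 of 12 seminal vesicle type libraries.

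**Figure D1:**
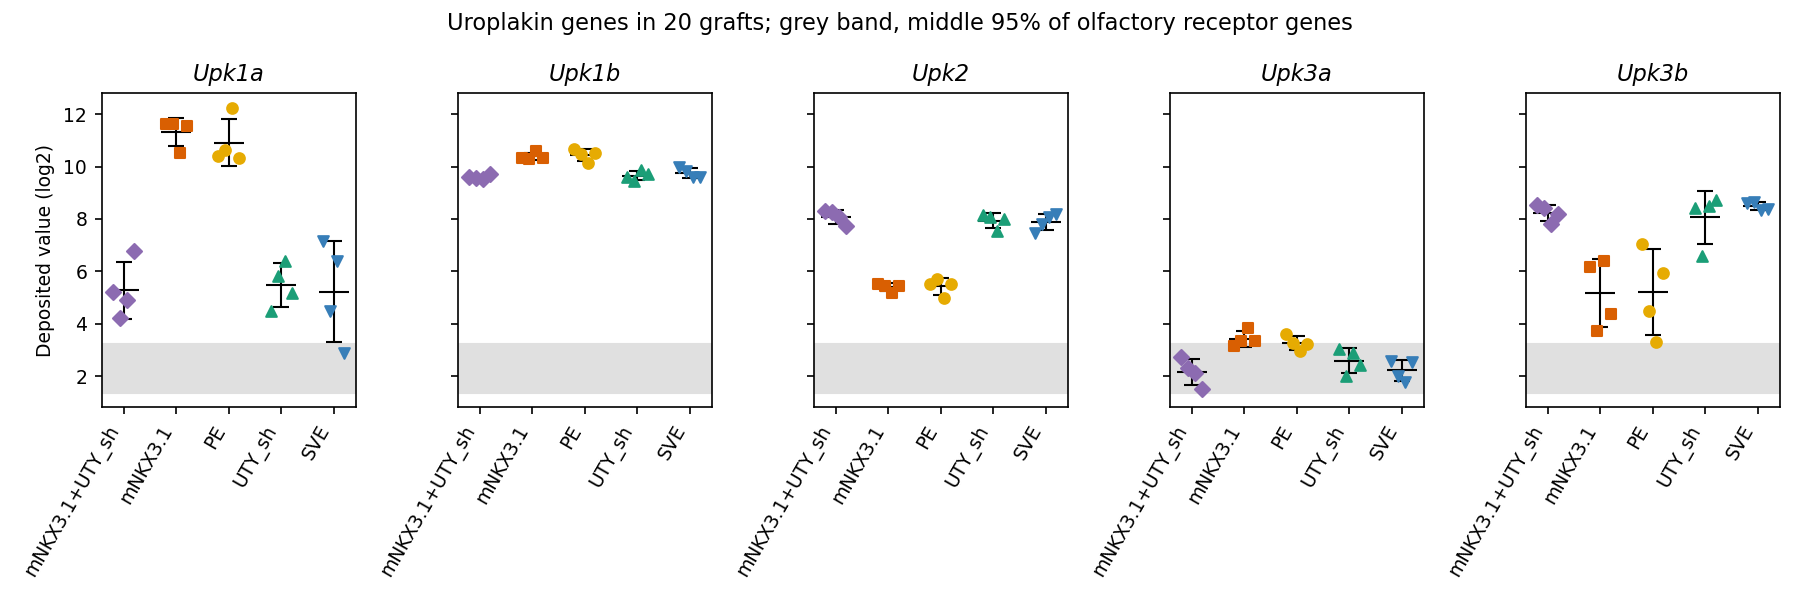
Deposited log2 value of each uroplakin gene in each library (points), with the mean and SD of the 4 libraries of a group (bars). Upk1a and Upk1b are higher and Upk2 and Upk3b lower in the mNKX3.1 and PE grafts. Upk3a lies within the grey band in the seminal vesicle type groups and within or just above it in the mNKX3.1 and PE grafts. The band holds 95% of olfactory receptor values (1.35 to 3.23).

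As a background, 40.0% of the 13456 genes kept had no overlap between prostate type and seminal vesicle type libraries, 20.5% higher in the prostate type and 19.4% lower. Among the 4 members kept, Upk1a and Upk1b had no overlap with higher values and Upk2 with lower values. Between PE and SVE grafts alone, 48.9% of genes had no overlap, 25.3% higher and 23.6% lower in PE, as did all 5 members. Since the members were chosen for this difference, nothing is read from these counts.

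Per length of exon, the family's order differed between the graft types. The lengths covered all annotated exons of a gene, at 1421 bases for Upk1a, 2089 for Upk1b, 1083 for Upk2 and 3530 for Upk3b. On a log2 scale per kilobase of exon, PE grafts had Upk1a at 10.40 ± 0.90, Upk1b at 9.39 ± 0.24, Upk2 at 5.31 ± 0.31 and Upk3b at 3.37 ± 1.64 (SD, n = 4 each). SVE grafts had Upk1b at 8.70 ± 0.19, Upk2 at 7.76 ± 0.31, Upk3b at 6.67 ± 0.16 and Upk1a at 4.72 ± 1.92. In PE grafts the libraries spanned 9.83 to 11.74 for Upk1a and 9.06 to 9.61 for Upk1b, without overlap, whereas Upk2 (4.86 to 5.59) and Upk3b (1.48 to 5.22) overlapped. In SVE grafts the ranges of Upk1b, Upk2 and Upk3b stayed apart, while that of Upk1a, from 2.38 to 6.64, reached into that of Upk3b, from 6.53 to 6.84. Part of this order rests on the lengths. As deposited, Upk3b (8.35 to 8.66) lay above Upk2 (7.48 to 8.18) in SVE grafts. Upk1a (10.34 to 12.24) and Upk1b (10.12 to 10.68) then overlapped in PE grafts. The lowest values, 1.48 for Upk3b in PE and 2.38 for Upk1a in SVE grafts, came from values near the level of silent genes.

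**Figure D2:**
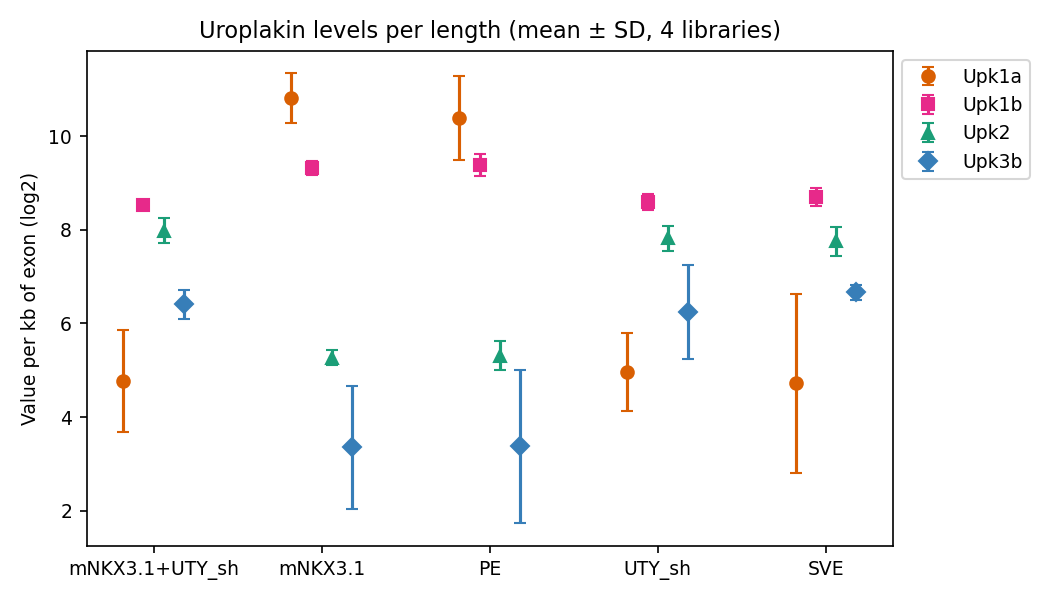
Level of 4 uroplakin genes per kilobase of exon on a log2 scale, as the mean and SD of 4 libraries per group. Upk1a is the highest in mNKX3.1 and PE grafts (10.82 and 10.40) and the lowest in SVE grafts (4.72), while Upk1b is the highest in the 3 seminal vesicle type groups.

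The balance between pairing partners turned round. Upk1a minus Upk2, on the log2 scale per kilobase, was 5.55 ± 0.38 in mNKX3.1 and 5.09 ± 1.19 in PE grafts, against -3.21 ± 1.33 in mNKX3.1+UTY_sh, -2.86 ± 1.06 in UTY_sh and -3.04 ± 2.14 in SVE grafts (SD, n = 4 each). Upk1a was thus above its partner in all 8 prostate type libraries and below it in all 12 others. Upk1b minus Upk3b kept its sign. It was 5.97 ± 1.21 in mNKX3.1 and 6.01 ± 1.42 in PE grafts, against 2.13 ± 0.31 in mNKX3.1+UTY_sh, 2.35 ± 0.88 in UTY_sh and 2.02 ± 0.09 in SVE grafts.

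Comparisons within a graft type did not enter the choice of members and were tested with limma over all 13456 genes. No gene was called in any of the 4 comparisons (0% each), and no uroplakin among the 4 tested. At an unadjusted p below 0.05 there were 65 genes (0.483%) for mNKX3.1 against PE, 316 (2.35%) for UTY_sh against SVE, 557 (4.14%) for mNKX3.1+UTY_sh against SVE and 217 (1.61%) for mNKX3.1+UTY_sh against UTY_sh, none of them a uroplakin. Independent libraries without any difference would give a share of about 0.05, and all 4 shares were below it. Why was not tested. A p that misses the threshold does not show that the groups are alike. The intervals below use a spread per gene that all groups share, so their width also reflects groups outside the comparison. For Upk3b the SE was 0.677 in each of the 4 comparisons. With the compared groups alone it was 0.1485 for mNKX3.1+UTY_sh against SVE and 0.8891 for mNKX3.1 against PE grafts.

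For mNKX3.1 against PE grafts, the difference in Upk1a was 0.42 with a 95% interval of -1.13 to 1.98, and that in Upk3b was -0.02 with an interval of -1.45 to 1.40. Upk1b and Upk2 were measured more tightly, at -0.07 (-0.31 to 0.17) and -0.04 (-0.42 to 0.35). All 4 adjusted p-values were 0.9999 by limma. For UTY_sh against SVE grafts, Upk1a differed by 0.24 (-1.31 to 1.8), Upk1b by -0.11 (-0.35 to 0.13), Upk2 by 0.06 (-0.32 to 0.44) and Upk3b by -0.43 (-1.86 to 0.99), each with an adjusted p of 0.9995 by limma. Upk3b in UTY_sh turned on replicate 2, and without it the difference was 0.06.

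For mNKX3.1+UTY_sh against SVE grafts, the differences were 0.05 (-1.51 to 1.61) for Upk1a, -0.16 (-0.40 to 0.08) for Upk1b, 0.21 (-0.17 to 0.59) for Upk2 and -0.27 (-1.69 to 1.15) for Upk3b, with limma's adjusted p at 0.9998. Against UTY_sh grafts they lay between -0.19 for Upk1a and 0.16 for Upk3b. The grafts with both the construct and the hairpin overlapped the UTY_sh and the SVE grafts in each of the 5 uroplakins, where 1.68% and 2.43% of the genes kept had no overlap.

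**Figure D3:**
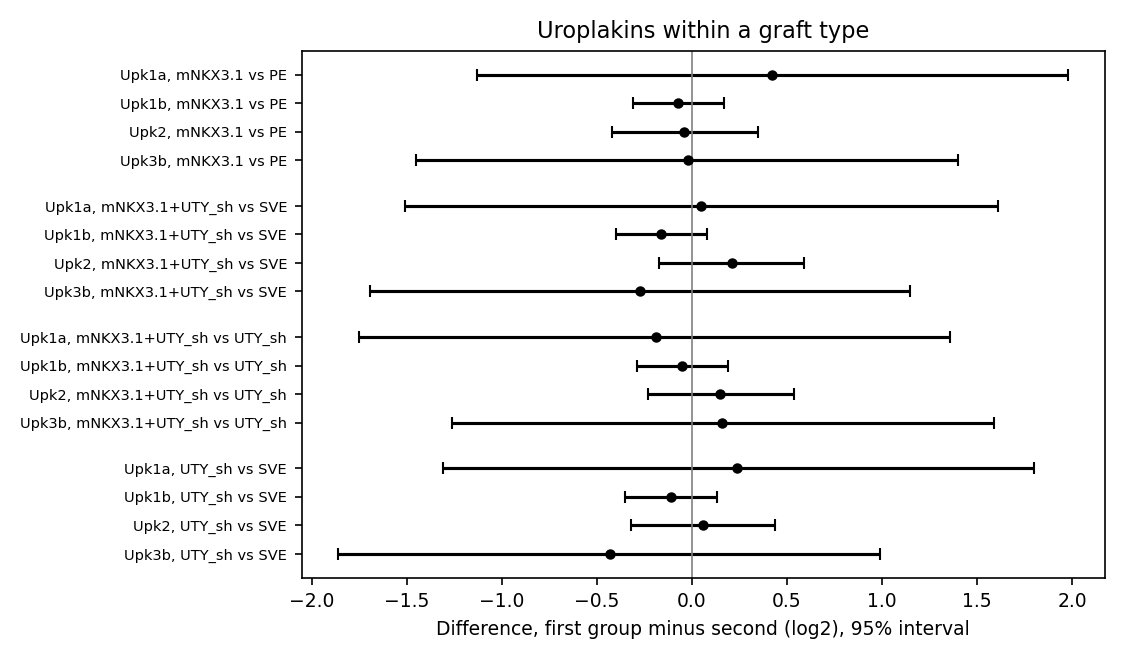
Difference in log2 value for each tested uroplakin in the 4 comparisons within a graft type, first-named group minus second, with limma's 95% interval. All 16 intervals span 0, and those of Upk1a and Upk3b are the widest. Their width rests on a spread per gene that all groups share.

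Within a graft type, some members also varied with each other, in the same or the opposite direction, from library to library. This was examined in 50 relations, with p-values adjusted over all 50, and rests on libraries whose independence is not shown. In the prostate type, libraries with more Upk1a had less Upk1b (Pearson's r = -0.951, exact permutation p = 0.001166, adjusted p = 0.008429, n = 8, and Spearman's rho = -0.905, exact p = 0.004563, adjusted p = 0.02852). The correlation was -0.963 without PE replicates 3 and 4, the libraries farthest from the median. That leave-out kept mNKX3.1 replicates 1, 2 and 4, whose closest sums of 2 PE libraries each held PE replicate 3. Upk1a was 11.61, 11.62 and 11.56 in those and 12.24 in PE replicate 3, above the rest of the type. The leave-out is thus no independent check. Exact p-values in the prostate type, here and below, assume libraries that are independent. Between the graft types Upk1a and Upk1b were both higher in the prostate type, so the direction among libraries was opposite to that between types. In the seminal vesicle type, libraries with more Upk1b had less Upk2 (r = -0.874, permutation p = 0.00038, adjusted p = 0.006333, n = 12, and rho = -0.776, permutation p = 0.0045, adjusted p = 0.02852). That correlation was -0.70 without SVE replicate 1 and UTY_sh replicate 3. Upk1b and Upk3b in the prostate type passed by Spearman's rho (0.929, exact p = 0.002232, adjusted p = 0.02232, n = 8). Pearson's r for them did not pass (0.833, exact permutation p = 0.01431, adjusted p = 0.05504), and it was 0.612 without PE replicates 1 and 3.

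All 5 members were also set against Pbsn, a companion added after the data were seen. In the prostate type, libraries with more Pbsn had less Upk1a (r = -0.956, exact permutation p = 0.0002728, adjusted p = 0.006333, n = 8, and rho = -0.952, exact p = 0.001141, adjusted p = 0.01902). Without PE replicates 3 and 4 the correlation was -0.974, though Pbsn itself spanned less than 1 log2 unit there. As above, this leave-out kept mNKX3.1 replicates 1, 2 and 4, whose closest sums held PE replicate 3. It is no independent check. Upk1b had the opposite sign, with more Upk1b in libraries with more Pbsn, and passed by Pearson's r (0.918, exact permutation p = 0.001885, adjusted p = 0.00965, n = 8). Spearman's rho for them did not pass (0.833, exact p = 0.01538, adjusted p = 0.06991). Without the same 2 libraries r was 0.962, with the same limit. In the seminal vesicle type the correlation of Upk1a with Pbsn was 0.633 and did not pass (permutation p = 0.02777, adjusted p = 0.08512, n = 12, and rho = 0.636, permutation p = 0.02937, adjusted p = 0.0979). It was 0.623 without SVE replicate 1 and mNKX3.1+UTY_sh replicate 1. Among the same 12 libraries, those with more Pbsn had less Upk2 (r = -0.811, permutation p = 0.00186, adjusted p = 0.00965, and rho = -0.825, permutation p = 0.00159, adjusted p = 0.01988), and r was -0.714 without those 2 libraries. None of the other 6 relations with Pbsn passed.

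Genes with the pattern most like each member were found by the root mean square difference, over the 20 libraries, between log2 values centred on each gene's mean. Nearest to Upk3b were Msln, which encodes the mesothelial surface protein mesothelin, at 0.334, Lrrn4, another mesothelial marker, at 0.454 and Slpi, a secreted protease inhibitor, at 0.558. The likeness to Msln held inside each type as well, with r = 0.98 over the 8 prostate type and 0.96 over the 12 seminal vesicle type libraries, given as descriptions because the gene was picked for its likeness. UTY_sh replicate 2, which had the lowest Upk3b of the seminal vesicle type, also had the lowest Msln there, 6.06, and PE replicate 3, the lowest of all in Upk3b, had the lowest Msln of the prostate type, 3.63.

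**Figure D4:**
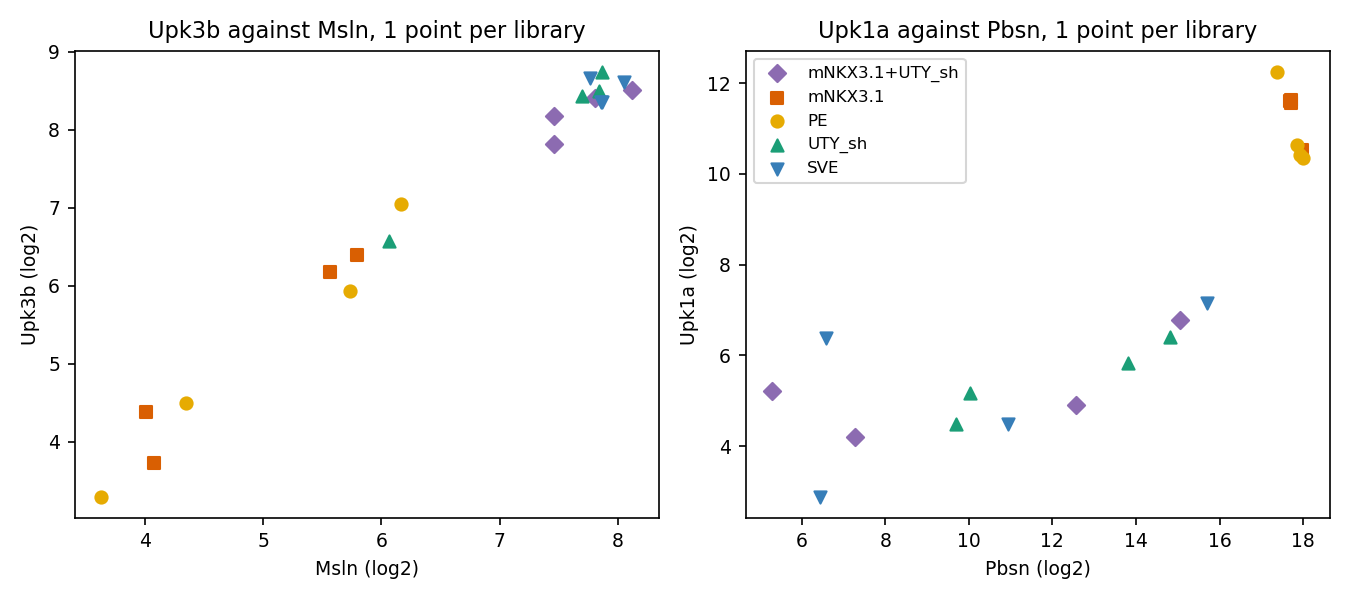
Left, Upk3b against Msln, and right, Upk1a against Pbsn, both as deposited log2 values with 1 point per library. UTY_sh replicate 2 lies among the prostate type libraries in the left plot (Msln 6.06, Upk3b 6.57), and in the right plot Upk1a is above 10 only where Pbsn exceeds 17.

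The other members had other neighbours. Nearest to Upk1a were the membrane endopeptidase Mme at 0.906, the manganese exporter Slc30a10 at 0.925 and the ribonuclease Rnase1 at 0.928. Mme correlated with Upk1a at r = 0.97 over the 8 prostate type and 0.80 over the 12 seminal vesicle type libraries, again as descriptions. The other neighbours of Upk1a were less alike inside a type. In the same order, r was 0.15 and 0.58 for Slc30a10 and -0.47 and 0.89 for Rnase1. Upk1b was closest to Rnasek (0.084), Get4, part of the tail-anchored protein insertion pathway (0.094), and Rab3a, a secretory vesicle GTPase (0.095). Upk2 was closest to the lysosomal mannosidase Man2b1 (0.159), Zfp791 (0.174) and Adssl1, an adenylosuccinate synthase (0.18). Genes that differ little between libraries have small distances, so the measure is not comparable between members.

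Mesothelial markers were mostly lower where Upk3b was lower. In PE against SVE grafts, limma called 62.1% of the 13456 genes, 31.8% higher and 30.4% lower. Of 9 mesothelial markers, 8 were lower and 1 was higher, with a median difference of -1.70 beside 0.02 over all genes. Wt1, a transcription factor of mesothelium, averaged 6.44 in PE and 7.95 in SVE grafts, a difference of -1.51 (SE 0.10, adjusted p = 8.834e-10). Nkain4 differed by -1.70 (SE 0.21, adjusted p = 1.916e-06) and Lrrn4 by -2.87 (SE 0.49, adjusted p = 6.121e-05). The exception, named after its value was seen, was the retinoic acid enzyme Aldh1a2, which is not restricted to mesothelium and averaged 10.23 in PE against 7.22 in SVE grafts (difference 3.00, SE 0.63, adjusted p = 0.0004172).

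Aldh1a2 averaged 10.47 in mNKX3.1 and 10.23 in PE grafts, above each other marker there, but in SVE grafts, at 7.22, it was below Wt1 at 7.95, Msln at 7.89 and Gpm6a at 7.75. The summed level of the 9 markers spanned 10.01 to 11.18 in mNKX3.1, 9.81 to 11.57 in PE, 9.95 to 10.35 in mNKX3.1+UTY_sh, 9.65 to 10.50 in UTY_sh and 10.21 to 10.87 in SVE grafts. No marker was at 0, and Bnc1, named after its values were seen, was the lowest, averaging 3.34 in PE and 5.22 in SVE grafts. The mean log2 value of the 9 markers correlated with Upk3b at r = 0.937 over the 8 prostate type and 0.864 over the 12 seminal vesicle type libraries, and at 0.875 and 0.683 without the 2 libraries of each type farthest from the median. These are descriptions, since the mean holds Msln and Lrrn4, the genes nearest to Upk3b. With the summed level in place of the mean, r was -0.405 in the prostate type and 0.768 in the seminal vesicle type. Other members varied with the mean of these markers as well. Upk1b was higher in libraries with a higher mean, in the prostate type (r = 0.949, exact permutation p = 0.0005208, adjusted p = 0.00651, n = 8, and rho = 0.976, exact p = 0.0003968, adjusted p = 0.00992, with r = 0.874 without PE replicates 1 and 3) and in the seminal vesicle type (r = 0.796, permutation p = 0.00193, adjusted p = 0.00965, n = 12, and rho = 0.713, permutation p = 0.01189, adjusted p = 0.05945, with r = 0.609 without SVE replicate 1 and UTY_sh replicate 2). With the sum, Upk1b had r = 0.849 in the seminal vesicle type (permutation p = 0.00036, adjusted p = 0.006333, n = 12, and rho = 0.783, permutation p = 0.00349, adjusted p = 0.02852, with r = 0.645 without those 2 libraries) and -0.001 in the prostate type. Upk1a was lower in prostate type libraries with a higher mean (r = -0.897, exact permutation p = 0.003299, adjusted p = 0.015, n = 8, and rho = -0.857, exact p = 0.01071, adjusted p = 0.05945, with r = -0.791 without PE replicates 1 and 3). By rho, Upk1b with the mean in the seminal vesicle type and Upk1a with the mean in the prostate type did not pass. Leaving out PE replicates 1 and 3 kept the mNKX3.1 libraries, whose closest sums each held PE replicate 1 or 3. That leave-out is no independent check. Both mesothelial measures were added after the data were seen. The part of mesothelial cells, or of rat RNA that aligns to mouse genes, in the levels of the uroplakins was not tested.

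Other urothelial markers that passed the test were lower in PE grafts. Of 6 further urothelial markers tested, 4 were lower in PE than in SVE grafts, none was higher and 2 did not pass, with a median of -0.80 beside 0.02 over all genes. Trp63, the basal cell factor p63, averaged 8.17 in PE and 9.30 in SVE grafts, a difference of -1.14 (SE 0.09, adjusted p = 5.985e-09 by limma). The keratin Krt7 differed by -2.08 (SE 0.34, adjusted p = 3.739e-05) and the surface protein Ly6d by -1.18 (SE 0.20, adjusted p = 4.245e-05). Krt20, the umbrella cell keratin, stayed below the filter with a highest value of 3.43, as did the uroplakin III-like gene 2310043J07Rik with a highest value of 3.28.

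Of 7 transcription factors known from urothelium, 3 were higher and 2 lower in PE than in SVE grafts, and 2 did not pass. Their median difference was 0.62 beside 0.02 over all genes. Counts of this and the other lists for PE against SVE stand beside 62.1% of all genes called, 31.8% higher and 30.4% lower. Foxa1, a forkhead factor also of prostate epithelium, averaged 11.88 in PE and 9.42 in SVE grafts (difference 2.46, SE 0.23, adjusted p = 5.633e-08). Ehf was 1.22 higher (SE 0.12, adjusted p = 6.459e-08) and Elf3 fell by 0.96 (SE 0.13, adjusted p = 4.064e-06), and both are ETS factors of epithelia. The eighth listed, Grhl3, was below the filter.

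Of 8 genes known for carrying uroplakins to and from the apical membrane, 4 were higher, 2 lower and 2 did not pass. Their median difference was 0.13 beside 0.02 over all genes. Rab27b, a GTPase of the vesicles that bring uroplakin plaques to the surface, averaged 10.34 in PE and 7.65 in SVE grafts (difference 2.70, SE 0.31, adjusted p = 6.965e-07). The recycling GTPase Rab11a fell by 0.47 (SE 0.08, adjusted p = 7.14e-05) and the endosomal sorting gene Vps33a rose by 0.32 (SE 0.06, adjusted p = 0.000221). Snx31, a sorting nexin that binds uroplakins, was below the filter. It averaged 3.21 ± 0.57 in mNKX3.1, 2.36 ± 0.60 in PE, 4.89 ± 0.39 in mNKX3.1+UTY_sh, 4.46 ± 0.32 in UTY_sh and 4.66 ± 0.10 in SVE grafts (SD, n = 4 each), and was given after its values were seen.

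Upk1a and Upk1b are tetraspanins, and among 27 others tested 9 were higher and 7 lower in PE than in SVE grafts, with a median of -0.04 beside 0.02 over all genes. Tspan8 averaged 9.37 in PE and 12.45 in SVE grafts (difference -3.08, SE 0.18, adjusted p = 7.442e-11). Tspan13 was 2.07 higher (SE 0.18, adjusted p = 2.17e-08) and Tspan14 was 0.60 higher (SE 0.05, adjusted p = 2.93e-08). General epithelial genes were mostly higher in PE grafts, at 6 of 7 with 1 lower. Epcam averaged 12.76 in PE and 11.03 in SVE grafts (difference 1.73, SE 0.16, adjusted p = 4.813e-08), Cdh1 was 0.71 higher (SE 0.07, adjusted p = 5.176e-08) and the basal keratin Krt14 fell by 1.14 (SE 0.20, adjusted p = 6.076e-05). The summed level of these 7 genes was 14.86 to 15.02 in PE and 14.08 to 14.47 in SVE grafts, and its part in the uroplakin differences was not tested.

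**Figure D5:**
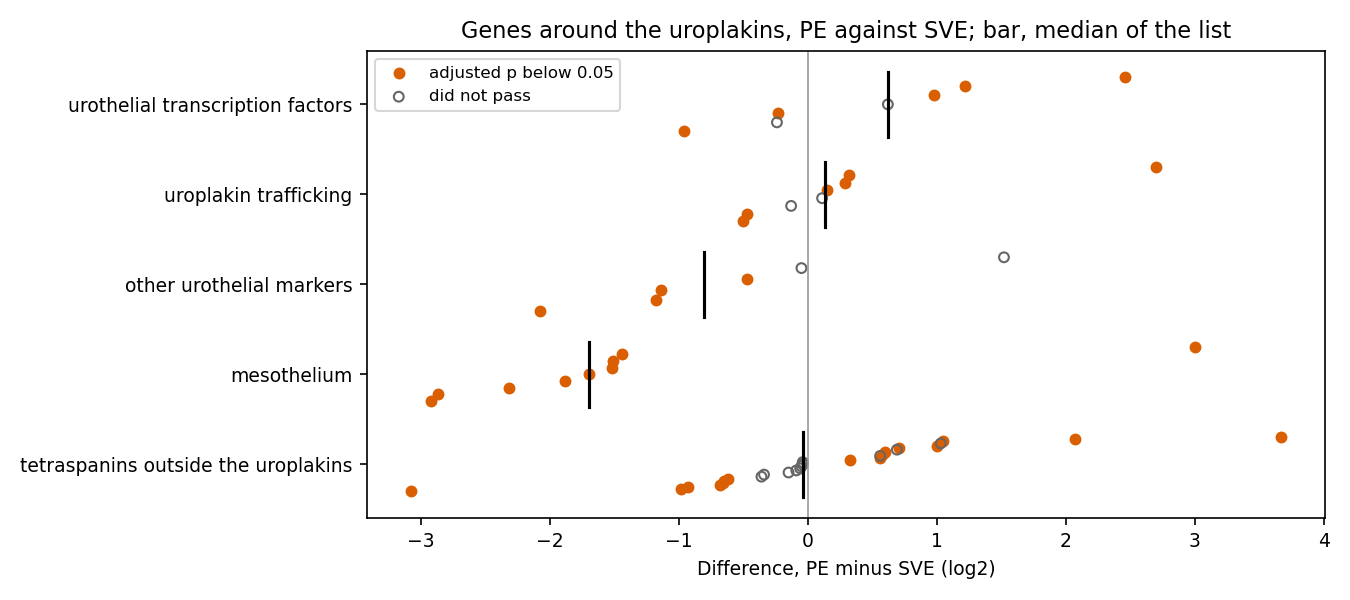
Difference in log2 value, PE minus SVE, for each tested gene of 5 lists around the uroplakins, with filled points for an adjusted p below 0.05 by limma and a bar at the median of each list. The mesothelial markers have 8 of 9 below 0 (median -1.70) and the tetraspanins spread to both sides (median -0.04).

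The same lists in mNKX3.1 grafts are given beside these, as the comparisons share the SVE libraries. Against SVE, where 62.3% of genes were called (31.7% higher and 30.6% lower), mNKX3.1 grafts had 4 urothelial transcription factors higher and 3 lower, 4 trafficking genes higher and 2 lower, no other urothelial marker higher and 4 lower, and 1 mesothelial marker higher and 8 lower. In mNKX3.1+UTY_sh against mNKX3.1 grafts, where 63.8% of genes were called (31.4% higher and 32.4% lower), 3 of the transcription factors were higher and 3 lower, 2 trafficking genes were higher and 3 lower, 4 urothelial markers were higher and none lower, and 8 mesothelial markers were higher and 1 lower. Msln averaged 7.71 in mNKX3.1+UTY_sh and 4.86 in mNKX3.1 grafts (difference 2.85, SE 0.52, adjusted p = 9.962e-05). Within a graft type limma called no gene of any of these lists, against 0% of all genes.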

How the data were processed

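Poly-A RNA of the 20 grafts was made into Illumina TruSeq libraries, per the labels' protocols. Tools listed in the submitters' processing notes are DESeq, Cufflinks 2.0.2, TopHat2 2.0.4 and bcl2fastq 1.8.4, and the build listed is mm9. How reads were counted, on which annotation and with what treatment of rat reads is not given in the sources used here. In the deposited table the authors gave 1 log2 value per gene and library. Between log2 values of 11 and 11.5 the antilogs were whole multiples of a unit per library (whole within 0.1), which gave the approximate depths. Reads of low genes could not be recovered, so no count test was run, and folds of low genes are understated and noisy. No pseudocount was added.

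Genes with a log2 value of at least 5 in at least 4 libraries were kept. With limma 3.58.1 (R 4.3.3), 1 mean per group was fitted over the 20 libraries, with a variance trend and Benjamini-Hochberg adjustment over all 13456 genes, and an adjusted p below 0.05 was called. The script was tested on simulated data. All tests are two-sided. Relations used exact permutations for 8 libraries and 100000 resamples for 12. Exon lengths came from GENCODE M21 and upstream sequences from RefSeq on GRCm38.p6. The table's columns were matched to samples by name, and the largest share of identical values in any of 190 library pairs was 0.052%. The members and gene lists were chosen with earlier results of these data known. Genes named are the members, up to 3 called genes per list with the smallest p for PE against SVE, the 3 nearest patterns of each kept member, and Pbsn, Svs2 and Uty as checks. Another check gene is not reported here. Aldh1a2, Bnc1, Gpm6a, Krt20, Grhl3, Snx31 and 2310043J07Rik fall outside that rule and were named after their values were seen. Library sums, mesothelial measures and Pbsn relations were added after the data were seen. Other settings tried were no filter, a minimum of 7, rescaling, other variance priors, the compared groups alone, and leaving out libraries. Replicate numbers follow accession order and pair no samples.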

Additional observations from a re-analysis of the deposited data

Results flagged for a closer look

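Of 25 sets of 4 libraries (5 uroplakins in 5 groups), 4 held a library whose gap to its nearest neighbour, divided by the whole range, exceeded Dixon's 95% critical value of 0.829. Chance flags about 1 in 20 such sets, but the uroplakins share libraries, and Upk1a and Upk1b vary inversely in the prostate type (r = -0.951). The 4 flags are therefore not separate events. Upk1a was low in mNKX3.1 replicate 3, at 10.53 (ratio 0.949), and high in PE replicate 3, at 12.24 (ratio 0.847). Upk1b was high in mNKX3.1 replicate 3, at 10.61 (ratio 0.838). Upk3b was low in UTY_sh replicate 2, at 6.57 (ratio 0.859), where Msln was at 6.06.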

How the results depend on the processing

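Between graft types, the 15 uroplakin differences kept their direction without a filter, with a minimum of 7, after rescaling (library shifts of -0.04 to 0.03 log2), with another variance prior, with the compared groups alone, without SVE replicate 1, UTY_sh replicate 3 and mNKX3.1+UTY_sh replicate 4, and without each library in turn. Counts of called genes stayed within 1.5 times in all these settings, between 6971 and 8721 for PE against SVE and at 0 in each comparison within a graft type. Within a type, no uroplakin was called under any setting, and directions of small differences turned when libraries were left out. For mNKX3.1 against PE the ranges were -0.176 to 0.0097 for Upk1b, -0.185 to 0.0575 for Upk2 and -0.65 to 0.59 for Upk3b. For UTY_sh against SVE they were -0.54 to 0.89 for Upk1a, -0.0743 to 0.189 for Upk2 and -0.66 to 0.0631 for Upk3b. For mNKX3.1+UTY_sh against SVE the ranges were -0.73 to 0.69 for Upk1a and -0.25 to 0.16 for Upk3a (-0.06 with all libraries), and Upk3a was at 0.28 without the 3 libraries named above. For mNKX3.1+UTY_sh against UTY_sh the ranges were -0.69 to 0.17 for Upk1a, -0.114 to 0.0186 for Upk1b and -0.33 to 0.39 for Upk3b. The cause was not tested. No paired analysis was possible because the labels give the groups no shared replicate numbers. Upk3a, near the level of silent genes, was below the filter.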
